A study of Sus scrofa with 14 samples.

Results

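Gene expression in a section of porcine mammary gland at involution was set against a section at gestation. The sections were those labelled day 90 of gestation (G90) and 2 days post natural involution (PI2), 1 section per stage, which are 2 of the 14 samples of the series. Each was a 10 µm frozen section read with Visium, in which barcoded spots on a slide capture the messenger RNA of the tissue lying over them and each captured molecule is counted once by a unique molecular identifier (UMI). The other 12 samples were nuclei or milk cells in suspension, and the nuclei of 4 glands of the same stages, 2 sows per stage, served as a second readout. The sows were multiparous and in their second breeding cycle. The methods describe sections and nuclei as parts of tissue from the same groups of sows but do not say which sow gave which, so a section and a nuclei library may come from 1 sow. Spots with at least 1000 UMIs were taken, which kept 6693 of 6969 deposited spots, 4634 of 4721 at G90 and 2059 of 2248 at PI2.

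In late gestation the mammary epithelium proliferates and begins to make milk proteins and lipid under prolactin, which acts through the transcription factor STAT5. When suckling stops, milk stasis and the loss of hormonal drive end milk synthesis, and signals through STAT3 are followed by lysosomal activity, an acute phase response, death of secretory cells and remodelling of the matrix by proteases. Macrophages and other leukocytes take up cell debris and milk fat in the regressing gland. These steps are best known from rodents, and the 2 sections gave the levels of their genes in the sow.

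The G90 section held 42743952 UMIs with a median of 8250 per spot, and the PI2 section 17788171 with a median of 6633. After each spot was thinned to 1000 UMIs, the median number of genes per spot was 553 at G90 and 546 at PI2. Levels were therefore given as CPM, the UMIs of a gene summed over spots and scaled to 1000000 UMIs of the section, and the presence of a gene as the share of thinned spots with at least 1 UMI. With 1 section per stage no test between stages was possible, and all intervals are 95% intervals that cover counting error only. All 2248 barcodes of the PI2 section were also in the G90 section. Barcodes mark positions on the array, and UMIs per position in the 2024 positions kept in both had a Spearman correlation of 0.0934. Mitochondrial transcripts took 2.19% of UMIs at G90 and 1.40% at PI2, and ribosomal protein genes 19.6% and 21.4%.

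A gene was counted as measured at 10 CPM or more in either section, which 8928 genes were. Of these, 960 (10.8%) were at least 2-fold higher at PI2 and 1292 (14.5%) at least 2-fold lower, and the median log2 difference, PI2 minus G90, was −0.13. The 10.8% and 14.5% are the shares to set beside the counts of each gene list below. PAEP, which encodes the whey protein beta-lactoglobulin, took 12.3% of all UMIs at G90 and 4.56% at PI2. With PAEP left out of the totals every other log2 difference became 0.12 lower, and the split became 806 higher and 1673 lower of 9178 measured genes. That split is the one to set beside list counts given with PAEP out of the totals. With median-of-ratios scaling every log2 difference became 0.07 higher, and the split became 1077 higher and 1114 lower, so the excess of lower genes depends on the scaling. At matched depth the share of spots was at least 10 percentage points higher at PI2 for 165 measured genes (1.85%) and at least 10 points lower for 128 (1.43%). The plot of levels has most measured genes of milk below the diagonal and most of those of lysosomes, proteases and defence above it. A lower level in a spot can come from fewer cells of a type or from less RNA per cell, which cannot be told apart here.

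**Figure D1:**
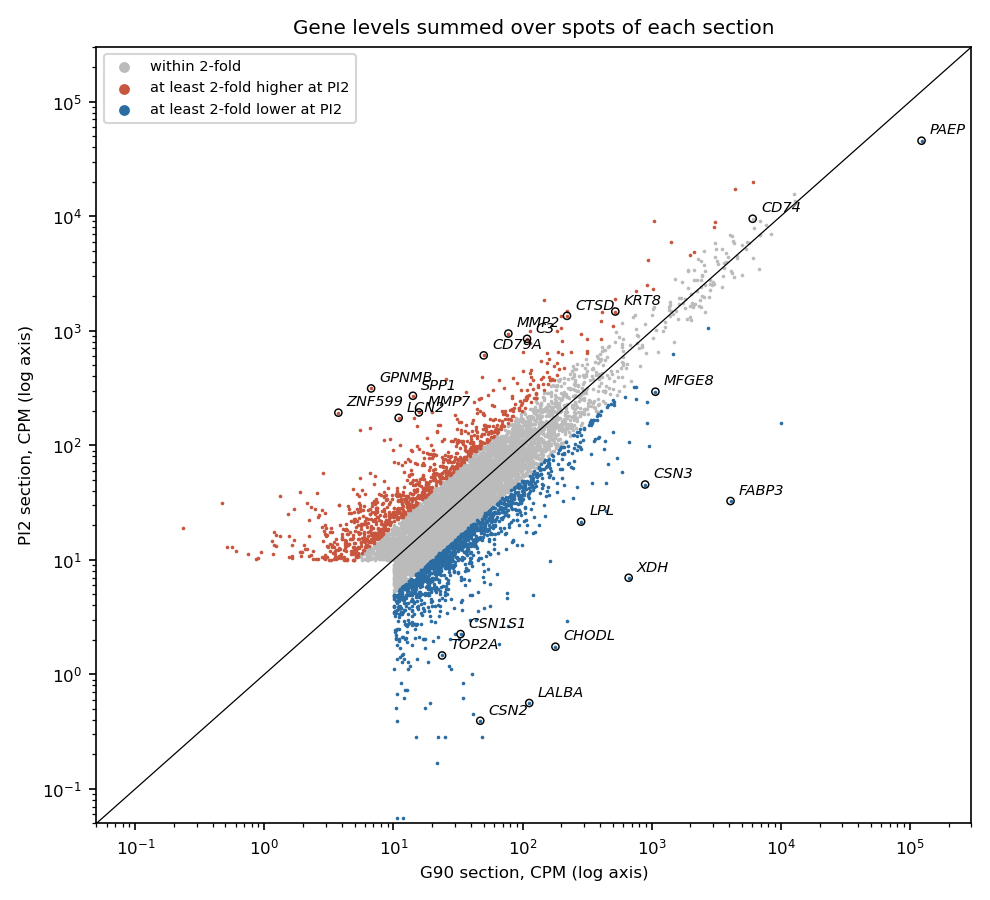
Level of each measured gene in the G90 section (x axis) and the PI2 section (y axis), in CPM summed over spots, both on log axes. Each point is 1 of 8928 genes, coloured where at least 2-fold higher (960) or lower (1292) at PI2. LALBA (113 and 0.562 CPM) lies farthest below the diagonal among the labelled genes and ZNF599 (3.74 and 193 CPM) farthest above it.

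Milk genes and defence genes are known to be controlled by STAT factors, whose core motif is TTCNNNGAA, a sequence that reads the same on both strands. In the 250 bases before the start of each gene (RefSeq, Sscrofa11.1), this motif was found in 1311 of 20607 genes (6.36%). Promoters of 44 named genes were looked at, of which 6 held it. These were 3 of 21 genes higher at PI2 (LCN2, MT1A and ZNF599), 3 of 20 lower genes (CSN1S1, CSN2 and PAEP) and 0 of 3 genes within 2-fold. The windows of the milk genes CSN3, LALBA, CEL, FABP3, XDH, BTN1A1 and MFGE8 did not hold these letters. Nor did those of the defence genes C3, CD14, ITIH4, LBP, LTF and PIGR. Shown are 3 milk protein genes that were lower at PI2 and 1 acute phase gene that was higher, each 5′ to 3′ on the strand of the gene and ending at the base before its start, with the motif in capitals. A match describes the sequence and is not evidence of binding. The promoter of CSN1S1, for alpha-S1-casein, lies at chr8:66887981-66888230 on the plus strand, and that of CSN2, for beta-casein, at chr8:66922637-66922886 on the minus strand. The promoter of PAEP is on an unplaced scaffold, bases 1886510 to 1886759, minus strand. The promoter of LCN2, for lipocalin 2, an acute phase protein that binds bacterial siderophores, lies at chr1:268609725-268609974 on the plus strand.
CSN1S1: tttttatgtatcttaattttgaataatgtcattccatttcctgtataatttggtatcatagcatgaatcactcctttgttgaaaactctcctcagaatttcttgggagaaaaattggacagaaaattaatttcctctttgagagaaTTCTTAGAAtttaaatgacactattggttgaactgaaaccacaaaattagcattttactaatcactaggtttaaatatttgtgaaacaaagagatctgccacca
CSN2: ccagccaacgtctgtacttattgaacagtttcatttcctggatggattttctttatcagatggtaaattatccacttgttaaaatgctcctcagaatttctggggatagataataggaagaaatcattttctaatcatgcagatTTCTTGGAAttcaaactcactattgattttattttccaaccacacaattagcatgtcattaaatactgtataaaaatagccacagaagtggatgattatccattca
PAEP: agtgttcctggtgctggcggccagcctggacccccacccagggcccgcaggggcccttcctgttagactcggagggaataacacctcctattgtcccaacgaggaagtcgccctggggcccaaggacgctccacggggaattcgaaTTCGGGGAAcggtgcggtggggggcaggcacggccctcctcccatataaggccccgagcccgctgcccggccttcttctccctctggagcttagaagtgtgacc
LCN2: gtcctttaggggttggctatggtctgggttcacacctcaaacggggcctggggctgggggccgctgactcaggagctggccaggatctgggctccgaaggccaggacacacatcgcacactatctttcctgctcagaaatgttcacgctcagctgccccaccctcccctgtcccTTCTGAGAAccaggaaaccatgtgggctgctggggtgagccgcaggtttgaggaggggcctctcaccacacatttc
The motif began 104 bases before the gene start in CSN1S1 and in PAEP, 106 bases before it in CSN2 and 76 bases before it in LCN2.

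Milk protein genes were lower at PI2 in all but 1 measured case. Of 9 genes on the list 6 were measured, of which 5 were at least 2-fold lower, beside 14.5% of all measured genes, and 1 higher. Their median log2 difference was −4.09, beside −0.13 over all measured genes. LALBA (chr5:79214487-79216791), which encodes alpha-lactalbumin, the regulatory subunit of lactose synthase, was at 113 CPM at G90 and 0.562 CPM at PI2 (4818 and 10 UMIs), 201-fold lower (109 to 418). After thinning, 9.78% of G90 spots and 0 of 2059 PI2 spots held it (upper bound 0.179%), and without thinning 50.1% and 0.437%. CSN2 (chr8:66914231-66922636) was at 47.0 CPM and 0.394 CPM (2010 and 7 UMIs), 119-fold lower (57.9 to 298). CSN1S1 (chr8:66888231-66908306) was at 33.1 CPM and 2.25 CPM, 14.7-fold lower (10.7 to 20.7). CSN3 (chr8:67099131-67109112), for kappa-casein, which keeps casein micelles in solution, was at 891 CPM and 45.4 CPM, 19.6-fold lower (18.3 to 21.1). It was present in 45.7% of thinned G90 spots and 3.30% of thinned PI2 spots, against 87.5% and 23.7% without thinning. A lncRNA annotated on the opposite strand overlaps CSN3. CEL, the bile salt-stimulated lipase, was the exception, at 1.54 CPM at G90 and 16.2 CPM at PI2.

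PAEP had a smaller fold difference than CSN1S1, CSN2 and CSN3. It was at 123265 CPM at G90 and 45604 CPM at PI2, 2.70-fold lower (2.70 to 2.71), and every spot of both sections held it at 1000 UMIs. The median thinned spot had 112 PAEP UMIs of 1000 at G90, with the middle 90% of spots between 59 and 215.35, and 42 at PI2, between 10 and 95. Its level was at 124066 CPM in epithelium-rich and 120940 CPM in epithelium-poor spots of G90 and at 42156 and 42730 CPM at PI2. Epithelium-rich and -poor here are the upper and lower 25% of spots of a section by summed thinned UMIs of 6 keratin, claudin and EPCAM genes.

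Genes of the milk fat globule, the membrane-wrapped droplet in which milk lipid leaves the cell, followed the caseins. Of 9 genes on the list 6 were measured, 4 were lower and 0 higher, with a median log2 difference of −3.49, and their summed level was 6490 CPM at G90 and 781 CPM at PI2. FABP3 (chr6:87943003-87950708), a fatty acid carrier, was at 4085 CPM and 32.6 CPM, 125-fold lower (115 to 136). It was in 92.6% (91.8 to 93.3) of thinned G90 spots and 3.59% (2.83 to 4.49) of thinned PI2 spots. XDH (chr3:107987060-108052043), xanthine dehydrogenase, which forms part of the coat of the globule, was at 664 CPM and 6.97 CPM, 95.2-fold lower (79.8 to 115). BTN1A1, butyrophilin, its partner in the coat, was at 17.5 CPM and 0.506 CPM, 34.5-fold lower (18.1 to 75.7). MFGE8, lactadherin, which marks dying cells for uptake by phagocytes, was at 1070 CPM and 294 CPM, 3.65-fold lower (3.54 to 3.75). The members that coat lipid droplets inside many cell types differed less, with PLIN2 at 587 and 393 CPM and RAB18 at 59.0 and 53.4 CPM.

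Enzymes that make fatty acids and triglyceride were lower by less. Of 16 genes on the list 14 were measured, 6 of them lower and 0 higher (median log2 difference −0.58). DGAT2 was the 1 measured member above equality, with a log2 difference of 0.99. With median-of-ratios scaling 6 were lower and 1 higher, beside 1114 and 1077 over all measured genes. GPAM, which adds the first fatty acid to glycerol phosphate, was at 248 CPM at G90 and 34.6 CPM at PI2, 7.16-fold lower (6.6 to 7.78). ACLY, which supplies cytosolic acetyl-CoA, was at 95.3 and 31.8 CPM, 2.99-fold lower (2.74 to 3.28), and INSIG1, a sterol sensor, at 28.8 and 9.67 CPM. SREBF1, a regulator of lipid synthesis genes, was at 378 and 166 CPM, 2.28-fold lower (2.19 to 2.37). FASN, the fatty acid synthase itself, stayed within 2-fold at 1267 and 1197 CPM. LPL (chr14:4104761-4134964), the lipase that takes fatty acids from blood lipoproteins, was at 284 and 21.5 CPM, 13.2-fold lower (11.9 to 14.7). DBI, which carries acyl-CoA, was at 961 and 99.1 CPM, 9.70-fold lower (9.25 to 10.2).

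In lactose synthesis and glucose supply 4 of 6 measured genes, of 9 on the list, were lower and 0 higher (median −1.60). Beside LALBA these included B4GALT1, the catalytic subunit of lactose synthase, at 223 and 68.5 CPM (3.26-fold lower), and UGP2, which makes UDP-glucose, at 126 and 44.5 CPM (2.84-fold lower). HK1, the hexokinase of most tissues, was at 40.3 and 67.6 CPM. Endoplasmic reticulum genes of protein folding and secretion gave 5 lower and 0 higher of 10 measured, beside 14.5% and 10.8% of all measured genes. With PAEP out of the totals these counts were 7 and 0, beside 1673 and 806 of 9178 genes. HSP90B1, a chaperone, was at 384 and 117 CPM (3.29-fold lower), and XBP1, a transcription factor of secretory cells, at 337 and 150 CPM (2.25-fold lower). Of 12 measured mitochondrial genome genes 5 were lower and 0 higher, with a summed level of 21912 CPM and 14018 CPM.

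**Figure D2:**
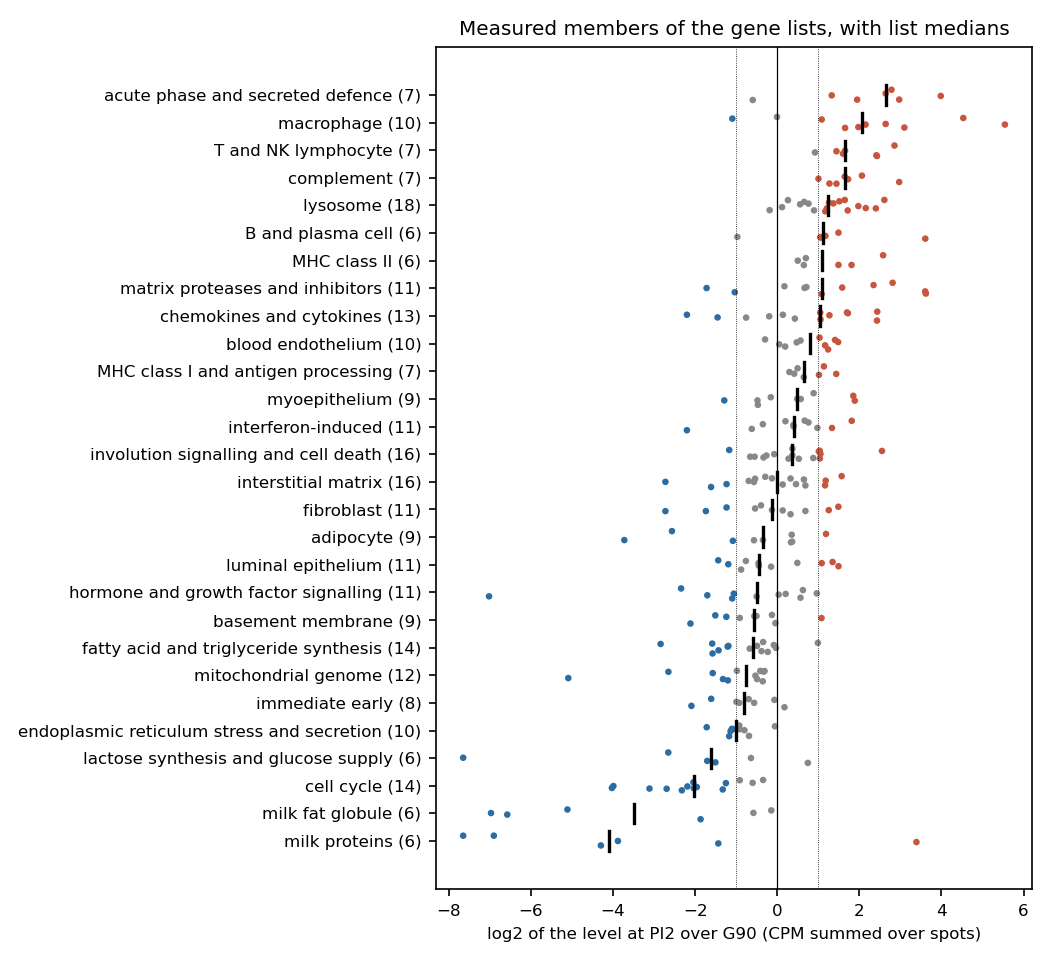
Log2 of the level at PI2 over G90 (x axis) for each measured member of the gene lists with 5 or more measured members (y axis, number measured in brackets), from CPM summed over spots. Points are genes, black bars are list medians and dotted lines mark 2-fold. Milk proteins have the lowest median (−4.09) and acute phase and secreted defence genes the highest (2.64).

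Of 21 hormone and growth factor genes 11 were measured, 5 of them lower and 0 higher, while their summed level was 2420 CPM at G90 and 2496 CPM at PI2. With median-of-ratios scaling 4 were lower and 1 higher, beside 1114 and 1077 over all measured genes. IGFBP5 lay closest to 2-fold on the higher side, with a log2 difference of 0.96. PRLR, the prolactin receptor, was at 56.4 CPM at G90 and 11 CPM at PI2, 5.07-fold lower (4.38 to 5.89). STAT5A (chr12:20474221-20498785) was at 515 and 241 CPM, 2.14-fold lower (2.07 to 2.21), and its neighbour STAT5B (chr12:20498103-20574365) at 366 and 113 CPM, 3.25-fold lower (3.11 to 3.41). The annotated ends of these genes share 683 bases on opposite strands. TNFSF11, the RANK ligand through which progesterone drives proliferation, had 934 UMIs at G90 and 3 at PI2, a ratio of 130 (44.2 to 629). Its receptor TNFRSF11A was at 36.1 and 17.4 CPM. The measured receptors of the epidermal growth factor family did not pass 2-fold, with EGFR at 57.5 and 66.3 CPM, ERBB2 at 79.4 and 81.4 CPM and ERBB3 at 1038 and 1601 CPM. ERBB4 was under 10 CPM in both sections, with a log2 difference of −2.15. EGFR was in 5.44% of thinned G90 spots and 5.15% of thinned PI2 spots, whose intervals overlapped (4.80 to 6.13 and 4.23 to 6.19).

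Cell cycle genes were lower. Of 22 genes on the list 14 were measured, 11 of them lower and 0 higher (median log2 difference −2.04), and their summed level was 1078 CPM at G90 and 450 CPM at PI2. TOP2A (chr12:22001300-22028452), the topoisomerase that untangles replicated DNA, was at 23.8 and 1.46 CPM, 16.3-fold lower (11 to 25.1). CENPF, a kinetochore protein, was at 10.7 and 0.675 CPM, 15.9-fold lower (9.0 to 31.0), and UBE2C, which serves the exit from mitosis, at 17.5 and 2.02 CPM, 8.64-fold lower (6.18 to 12.4). Helicase subunits of the replication origin ranged from 1.51-fold lower for MCM7 to 6.46-fold lower for MCM6. TUBB, a tubulin gene that many resting cells also express, was within 2-fold at 436 and 232 CPM. Of 8 measured immediate early genes 2 were lower, beside 14.5% of all measured genes. With PAEP out of the totals 4 were lower, beside 1673 of 9178 genes. FOSB was at 19.4 and 4.55 CPM and EGR1 at 92.7 and 30.4 CPM.

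Among the lower genes with 100 CPM or more at G90, several belong to none of these pathways. CHODL, the membrane lectin chondrolectin, was at 180 and 1.74 CPM, 103-fold lower (72.6 to 152). PAPLN, papilin, a matrix glycoprotein, was at 440 and 26.6 CPM, 16.5-fold lower (15.1 to 18.1). FGFBP1, which releases fibroblast growth factors from the matrix, was at 162 and 9.67 CPM, 16.8-fold lower (14.4 to 19.6). GRIFIN, a galectin-related gene, at 221 and 2.92 CPM, MSTN, myostatin, at 446 and 47.0 CPM, and AP1AR at 344 and 46.4 CPM each overlap a gene on the other strand, and their counts are uncertain to that extent. HPS5, a subunit of a complex that serves lysosome-related organelles, was at 592 and 58.1 CPM. The naming rule, which took only genes with a symbol, ended at GPAM, with a log2 difference of −2.84, and IDI1 just outside it was also at −2.84. On the higher side it ended at C4A (3.12), with ADIRF just outside (3.10).

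Lysosomal genes were higher or within 2-fold. All 18 on the list were measured, 11 of them at least 2-fold higher and 0 lower, with a median log2 difference of 1.24 and a summed level of 2143 CPM at G90 and 6199 CPM at PI2. CTSD (chr2:1188548-1197642), the aspartic protease cathepsin D, was at 221 and 1349 CPM, 6.10-fold higher (5.96 to 6.25). It was in 20.0% (18.9 to 21.2) of thinned G90 spots and 62.7% (60.6 to 64.8) of thinned PI2 spots. PSAP (chr14:74734185-74820645), the precursor of activators of sphingolipid breakdown, was at 200 and 1056 CPM, 5.29-fold higher (5.15 to 5.42), though part of it lies opposite CDH23. GRN, progranulin, was at 101 and 449 CPM, 4.46-fold higher (4.30 to 4.63). CTSB, the cysteine protease cathepsin B, was at 139 and 546 CPM, 3.93-fold higher (3.81 to 4.06). Members within 2-fold included LAMP2 at 104 and 91.2 CPM and HEXA at 98.7 and 107 CPM, while the membrane protein LAMP1 was at 128 and 288 CPM.

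Of 18 matrix protease and inhibitor genes 11 were measured, 6 higher and 2 lower (median 1.08), and with PAEP out of the totals 5 higher and 2 lower. MMP2 (chr6:30059247-30087031), gelatinase A, was at 77.7 CPM at G90 and 945 CPM at PI2, 12.2-fold higher (11.7 to 12.6). It was in 9.15% (8.33 to 10.0) of thinned G90 spots and 57.4% (55.2 to 59.5) of thinned PI2 spots. MMP14, the membrane protease that activates MMP2, was at 54.3 and 276 CPM, 5.09-fold higher (4.84 to 5.34). MMP7 (chr9:33214590-33225080), matrilysin, a protease of epithelial cells, was at 15.7 and 193 CPM, 12.3-fold higher (11.3 to 13.4), and MMP9, gelatinase B, at 10.1 and 70.9 CPM, 7.01-fold higher (6.28 to 7.84). MMP11 and PLAU, at 29.2 and 46.4 CPM and at 8.59 and 14.1 CPM, stayed within 2-fold. The inhibitor TIMP3 was at 115 and 344 CPM, and TIMP1 at 73.8 and 83.4 CPM. ADAMTS1, a protease of proteoglycans, was lower at 56.7 and 17.2 CPM, and PLAT, a plasminogen activator, higher at 21.4 and 45.3 CPM.

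Of 16 measured interstitial matrix genes 3 were higher and 3 lower, beside 10.8% and 14.5% of all measured genes, with a median log2 difference of 0.00. COL6A1, a chain of the beaded type VI collagen, was at 408 and 1210 CPM, 2.97-fold higher (2.91 to 3.03), and BGN, biglycan, at 165 and 374 CPM. COL3A1 (chr15:93556914-93595678), a fibrillar collagen, was at 1467 and 624 CPM, 2.35-fold lower (2.30 to 2.40), and POSTN, periostin, at 457 and 69.3 CPM, 6.6-fold lower (6.23 to 7.00). Of 9 measured basement membrane genes 3 were lower and 1 higher (4 and 0 with PAEP out of the totals), beside 14.5% and 10.8% of all measured genes. NID2, nidogen 2, was at 36.7 and 8.49 CPM (4.32-fold lower), LAMB1 at 114 and 40.1 CPM (2.84-fold lower) and LAMB2 at 26.4 and 55.8 CPM (2.11-fold higher). Among the fibroblast markers, COL1A1, COL1A2, COL3A1, DCN, LUM, POSTN and COL6A3 are also on the interstitial matrix list. The fibroblast markers gave 2 higher and 3 lower of 11 measured, beside 10.8% and 14.5% of all measured genes. Their summed level was 4342 CPM at G90 and 3742 CPM at PI2, but the mean thinned spot held 5.26 and 5.33 of their UMIs. Sums over spots weigh deep spots more. COL1A2 in thinned spots had a Spearman correlation with UMIs per spot of −0.339 at G90 and −0.433 at PI2. PDGFRB, a receptor of fibroblasts and pericytes, was at 155 and 436 CPM. THBS2, a matricellular protein, was at 15.3 and 148 CPM, and MXRA8, a cell adhesion protein, at 19.8 and 197 CPM.

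Genes of secreted defence were higher. Of 16 acute phase and defence genes 7 were measured, 6 of them higher and 0 lower (median 2.64). C3 is also on the complement list and CD14 on the macrophage list, so these counts are not separate. LCN2 was at 11.0 CPM at G90 and 173 CPM at PI2, 15.8-fold higher (14.3 to 17.5), and was in 1.12% and 12.1% of thinned spots. LBP, which presents bacterial lipopolysaccharide to CD14, was at 2.95 and 20.3 CPM, and CD14 itself at 29.7 and 185 CPM, 6.24-fold higher (5.84 to 6.66). PIGR, which carries dimeric immunoglobulin A across the epithelium, was at 41.3 and 104 CPM, 2.51-fold higher (2.35 to 2.68). LTF, lactoferrin, was the measured member that was not higher, at 289 and 191 CPM. MT1A, a metallothionein that binds zinc and copper, was at 6.57 and 143 CPM, 21.7-fold higher (19.2 to 24.6).

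All 7 measured complement genes, of 13 on the list, were higher (median 1.64). C3 (chr2:72431470-72471622), the central component, was at 108 CPM at G90 and 850 CPM at PI2, 7.84-fold higher (7.59 to 8.10), and was in 10.9% (10.0 to 11.8) and 54.1% (51.9 to 56.3) of thinned spots. CFD, the protease of the alternative pathway, was at 283 and 937 CPM, 3.31-fold higher (3.23 to 3.39). The chains of C1q, which macrophages make, were between 2.01-fold (C1QC) and 3.13-fold (C1QA) higher. SERPING1, the inhibitor of C1, was at 239 and 650 CPM. C4A, which is not on the list, was at 115 and 994 CPM, 8.67-fold higher (8.40 to 8.95). With PAEP out of the totals 6 of the 7 genes were at least 2-fold higher.

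Most measured markers of leukocytes were also higher in the PI2 section. In the cell types that the paper assigned to nuclei, by contrast, immune cells were a smaller share at PI2 than at G90. Of 10 measured macrophage markers, of 13 on the list, 8 were higher and 1 lower (7 and 1 with PAEP out of the totals), and their summed level was 327 CPM at G90 and 1389 CPM at PI2. Spots with any macrophage marker made up 28.5% of thinned spots at G90 and 69.1% at PI2. GPNMB (chr9:92037428-92071501), a glycoprotein of macrophages that digest debris, was at 6.71 and 314 CPM, 46.7-fold higher (41.5 to 52.8), and was in 0.885% (0.636 to 1.2) and 23.8% (22 to 25.7) of thinned spots. TREM2, a lipid receptor of such cells, was at 0.561 and 13 CPM, CD68, of their endosomes, at 4.84 and 41.4 CPM, and CSF1R, the receptor that keeps macrophages alive, at 96.7 and 304 CPM. CD163, a scavenger receptor, went the other way at 35.6 and 16.7 CPM, MRC1 was at 17.7 CPM in both sections, and LYZ had 0 UMIs. Most of these markers were higher at PI2, as were most lysosomal, complement and defence genes above, and CD14 is on both the macrophage and the defence list. With 1 section per stage this does not show that they vary together. The part of macrophages in those results was not tested. The paper also takes CD14 as a marker of epithelial precursor cells. In the PI2 section CD14 was 2.13-fold higher in epithelium-rich than epithelium-poor spots. For the other measured macrophage markers this ratio ran from 0.604 (MRC1) to 1.24 (CD68). Which cells gave the CD14 counts was not tested. SPP1, osteopontin, which macrophages and epithelial cells both secrete, was at 14.2 and 271 CPM, 19.1-fold higher (17.6 to 20.8), and ACP5, an acid phosphatase of macrophages and osteoclasts, at 9.33 and 113 CPM. PLTP, which transfers phospholipid between lipoproteins, was at 14.5 and 171 CPM, and its end overlaps CTSA on the other strand.

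Lymphocyte markers were mostly higher. Of 7 measured T and NK cell markers 6 were higher and 0 lower, and their summed level was 87.7 CPM and 408 CPM. CCL5, a chemokine of cytotoxic cells, was at 47.6 and 256 CPM, 5.39-fold higher (5.11 to 5.68), and NKG7, a granule protein, at 5.66 and 41.0 CPM. Of 6 measured B and plasma cell markers 5 were higher and 0 lower, and with PAEP out of the totals 3 were higher and 1 lower. JCHAIN, which joins dimeric immunoglobulin A, was at 1034 and 2334 CPM, 2.26-fold higher (2.23 to 2.29). CD79A, part of the B cell receptor, was at 50 and 609 CPM, 12.2-fold higher (11.6 to 12.8), while its partner CD79B was at 2.97 and 3.43 CPM, and PAX5 had 0 UMIs in both sections. No neutrophil marker reached 10 CPM, and the summed level of the 5 matched markers was 2.18 CPM at G90 and 22.9 CPM at PI2. HBB, beta-globin of red blood cells, was at 25.6 and 380 CPM, 14.9-fold higher (13.9 to 15.9). HBM, ALAS2, AHSP and SLC4A1 were under 10 CPM in both sections. At these low levels HBM, ALAS2 and AHSP were also higher at PI2, with log2 differences of 1.36, 4.43 and 3.68. The part of blood in the leukocyte values was not tested.

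Antigen presentation and chemokine genes were higher in part. Of 6 measured MHC class II genes 3 were higher, among them SLA-DMA at 15.7 and 93.7 CPM, while CD74, the invariant chain, was at 6063 and 9504 CPM and present in over 99% of thinned spots at both stages (99.1% and 99.8%). Of 7 measured class I genes 3 were higher (2 with PAEP out of the totals), with B2M, the light chain, at 917 and 2483 CPM, 2.71-fold higher (2.67 to 2.75). Of 13 measured chemokine and cytokine genes 7 were higher and 2 lower, and with PAEP out of the totals 5 and 2. CXCL12, which retains leukocytes in stroma, was at 31.3 and 170 CPM, CXCL2, which draws neutrophils, at 40.9 and 133 CPM, and CXCL10, an interferon-induced chemokine, at 37.7 and 8.21 CPM. Interferon-induced genes gave 2 higher and 1 lower of 11 measured, beside 10.8% and 14.5% of all measured genes. Of 10 measured blood endothelium markers 5 were higher and 0 lower (4 and 0 with PAEP out of the totals), led by PLVAP at 49.6 and 139 CPM and VWF at 70.5 and 187 CPM.

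Of 24 genes of involution signalling and cell death 16 were measured, 5 of them higher and 1 lower, beside 10.8% and 14.5% of all measured genes. With PAEP out of the totals 1 of the 16 was higher and 1 lower, beside 806 and 1673 of 9178 genes, since 4 of the 5 lay close to 2-fold. CEBPD, a target of STAT3, was at 2.13 CPM at G90 and 12.5 CPM at PI2, 5.86-fold higher (4.57 to 7.57), and was the gene farthest from equality. STAT3 was at 63.3 and 130 CPM, 2.05-fold higher (1.94 to 2.17), and TGFB1 at 52.8 and 110 CPM, 2.08-fold higher (1.95 to 2.21). CLU, clusterin, a secreted chaperone, was at 711 and 1308 CPM, and CASP8, an initiator caspase, at 13.3 and 5.90 CPM. LIF, LIFR, SOCS3 and FAS were under 10 CPM in both sections. Of 24 genes that the study names for these stages 22 were measured, 2 of them higher and 7 lower, beside 10.8% and 14.5% of all measured genes. This list was chosen on these samples and so is not independent of them. Of 57 measured ribosomal protein genes 1 was higher and 1 lower.

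Of 11 measured luminal markers 3 were higher and 2 lower (2 and 3 with PAEP out of the totals), beside 10.8% and 14.5% of all measured genes, and their summed level was 2731 CPM at G90 and 3644 CPM at PI2. The higher members were the keratin genes KRT8 (chr5:18172423-18180277) at 523 and 1472 CPM, 2.81-fold higher (2.76 to 2.86), KRT18 at 133 and 338 CPM and KRT7 at 316 and 669 CPM. The lower members were ELF5, a transcription factor that drives the secretory fate, at 141 and 52.1 CPM, 2.71-fold lower (2.53 to 2.90), and the transcription factor EHF at 512 and 224 CPM, 2.28-fold lower (2.21 to 2.36). GRHL2, also a transcription factor on the list, was at 26.8 and 24.2 CPM. EPCAM and CDH1, of cell adhesion, were at 288 and 156 CPM and at 171 and 125 CPM. Of 9 measured myoepithelial markers 2 were higher and 1 lower, beside 10.8% and 14.5% of all measured genes. KRT14 was at 516 and 1911 CPM, 3.70-fold higher (3.64 to 3.77), and KRT5 at 60.4 and 218 CPM, while the oxytocin receptor OXTR was at 44.4 and 18.2 CPM, 2.44-fold lower (2.17 to 2.76). The contractile genes ACTA2, MYH11, MYLK and CNN1 stayed within 2-fold. ELF3, an epithelial transcription factor, was at 11.3 and 100 CPM, 8.86-fold higher (8.0 to 9.81).

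Of 9 measured adipocyte markers, of 14 on the list, 3 were lower and 1 higher, beside 14.5% and 10.8% of all measured genes, with a summed level of 984 CPM at G90 and 655 CPM at PI2. ADIPOQ (chr13:124633906-124646237), adiponectin, was at 27.2 and 12.9 CPM, 2.11-fold lower (1.83 to 2.45), and was in 6.11% and 2.72% of thinned spots. FABP4, the fatty acid carrier of adipocytes and endothelium, was at 438 and 295 CPM, and PLIN4, of the adipocyte droplet, at 19.3 and 3.26 CPM. The other lower member was LPL, given above with the lipid genes, and its fall in CPM makes up most of the fall in the summed level. PNPLA2, the lipase that starts triglyceride breakdown, was higher at 56.5 and 129 CPM. Matched skeletal muscle markers other than DES were under 10 CPM in both sections, as were KRT1 and DSG1 of the epidermis.

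**Figure D3:**
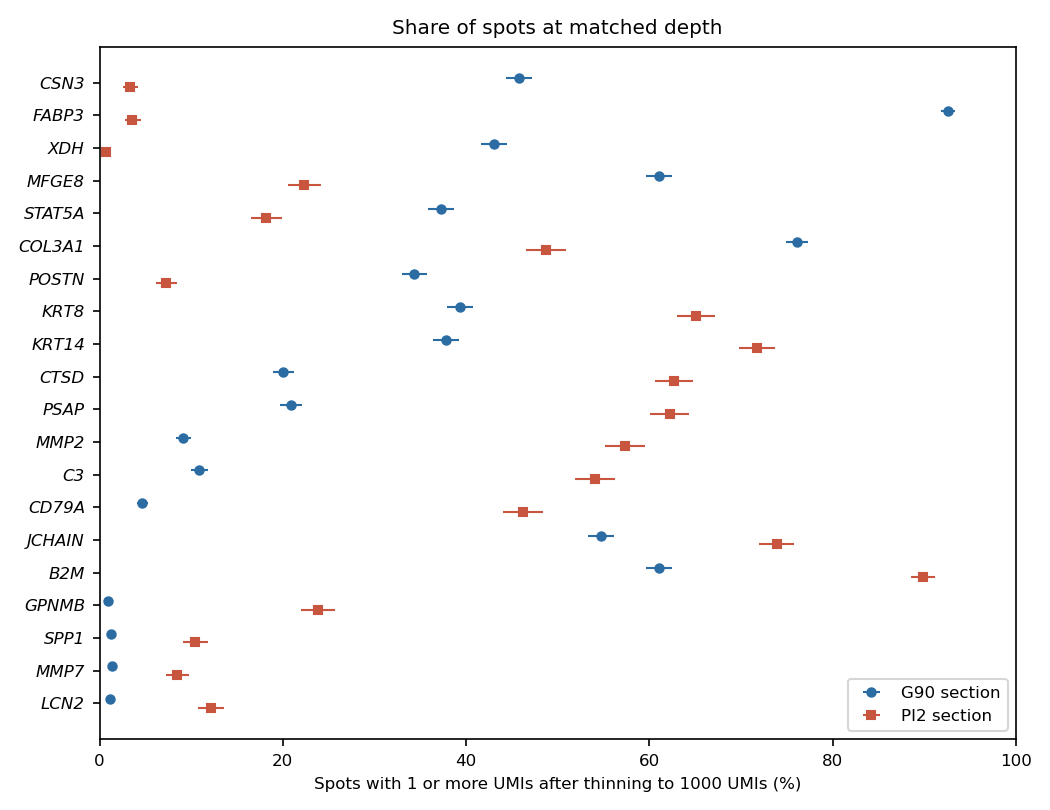
Share of spots with at least 1 UMI of each gene after thinning to 1000 UMIs per spot (x axis, %), at G90 (circles, 4634 spots) and PI2 (squares, 2059 spots), with exact binomial 95% intervals. Of the genes plotted, FABP3 has the widest gap on the lower side (92.6% and 3.59%) and MMP2 the widest on the higher side (9.15% and 57.4%).

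Depth changed the size of these shares. Without thinning, FABP3 was in 99.5% of G90 spots and 20.2% of PI2 spots, and XDH in 87.0% and 5.10%. On the higher side CTSD was in 75.3% and 91.0%, MMP2 in 46.2% and 91.3%, C3 in 56.6% and 90.4%, GPNMB in 5.76% and 69.5% and LCN2 in 8.55% and 48.2%. ADIPOQ was in 14.6% and 6.07% of unthinned spots, and EGFR, which was slightly higher at G90 in thinned spots, in 35.8% and 35.9%.

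The stages were also compared in epithelium-rich spots, a name for the keratin, claudin and EPCAM score and not for all genes of epithelium. This class began at 2 UMIs of the score genes at G90 and at 4 at PI2, with ties broken by barcode order. KRT7, KRT8 and KRT18 of the score were themselves higher at PI2. The class is thus not alike between stages, which limits the comparison. In epithelium-rich spots (1158 at G90 and 514 at PI2, the genes of the score left out) 1065 of 8973 measured genes (11.9%) were at least 2-fold higher and 1233 (13.7%) lower. Of the genes called higher over all spots and measured there 852 of 932 (91.4%) were also higher in epithelium-rich spots, and of the genes called lower 1073 of 1275 (84.2%). These spots are part of the same sections, so the shares do not come from independent tissue, and at G90 the median gene had a ratio of 0.999 between epithelium-rich and epithelium-poor spots, so that much of this overlap is fixed by how the spots were chosen. FABP3 was at 3746 and 26.2 CPM in these spots, CSN3 at 816 and 53.9 CPM, CTSD at 235 and 1417 CPM and MMP2 at 73.7 and 764 CPM.

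Within each section the levels of genes were also set against the epithelial content of spots. The classes are not alike between sections, since the median spot had 1 UMI of the score genes at G90 and 2 at PI2, and the epithelium-rich class began at 2 and at 4 UMIs, so that the counts below were not compared between stages. Among genes with at least 100 CPM in either class of spots, 2 of 1303 (0.153%) were at least 2-fold higher in epithelium-rich than epithelium-poor spots at G90 and 0 the other way. At PI2, 26 of 1393 (1.87%) were higher in epithelium-rich spots and 13 (0.933%) in epithelium-poor ones. MMP7 led at PI2, with 547 CPM in rich and 27.4 CPM in poor spots, 20.0-fold, followed by SPP1 with 687 and 63.4 CPM, 10.8-fold. PIGR was at 225 and 42.1 CPM, ELF3 at 203 and 45.0 CPM and LCN2 at 355 and 87.6 CPM. MMP2 did not share this side, at 764 CPM in rich and 1108 CPM in poor spots, nor did GPNMB, at 258 and 321 CPM. Most milk genes were not higher in rich spots at G90. FABP3 was at 3746 CPM in rich and 4349 CPM in poor spots there. The ratio of rich to poor spots at G90 was 0.723 for BTN1A1, 0.832 for LALBA, 0.842 for CSN2, 0.859 for CSN3 and 0.886 for XDH. It was 0.967 for MFGE8, 1.01 for CSN1S1 and 1.03 for PAEP, and 0.919 for the transcription factor ELF5. The score thus did not mark the spots richest in these secretory genes at G90. Depth moved with the class, since the median spot held 8877.5 UMIs in rich and 7615.5 in poor spots at G90 and 8598.5 and 4666 at PI2, and the part of depth in these contrasts was not tested.

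**Figure D4:**
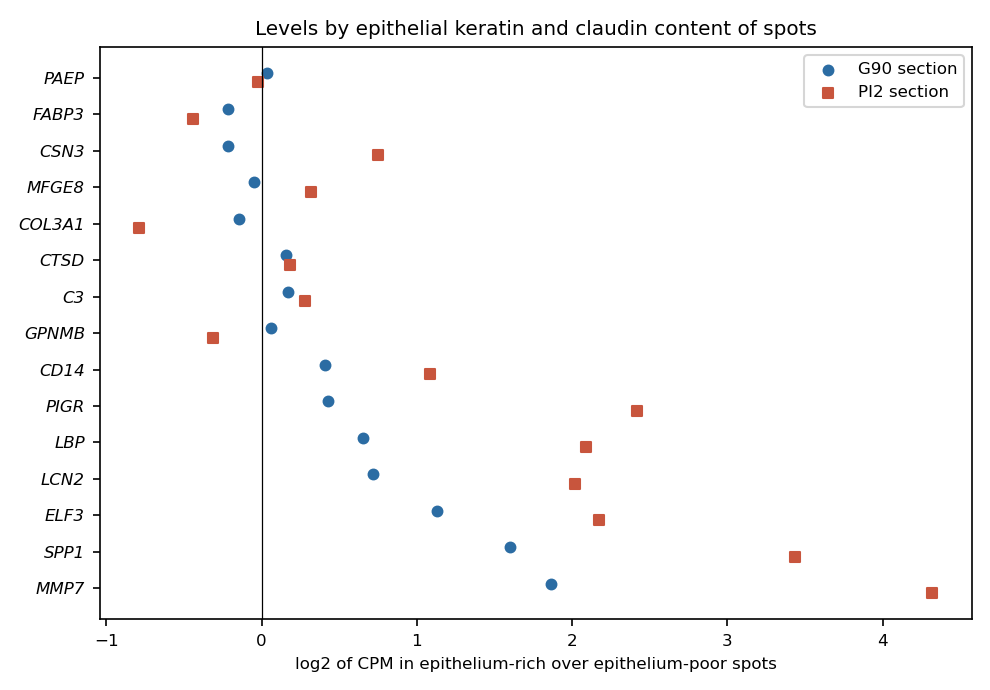
Log2 of CPM in epithelium-rich over epithelium-poor spots (x axis) for 15 genes (y axis), at G90 (circles) and PI2 (squares). MMP7 (547 and 27.4 CPM) and SPP1 (687 and 63.4 CPM) lie farthest to the right at PI2, while PAEP lies near 0 in both sections.

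The nuclei of 2 sows per stage gave a readout with replicates, though of nuclear RNA. In a fit over all 10 gland libraries 22695 genes were tested between PI2 and G90, and edgeR's quasi-likelihood test called 0 higher and 0 lower (0.0% each, smallest adjusted p 0.418). At an unadjusted p under 0.05 and a log2 fold change over 1 it gave 882 higher and 547 lower, and DESeq2 called 129 and 173. As a description, both PI2 glands were above both G90 glands for 2573 of the tested genes (11.3%) and below for 4451 (19.6%). Among the genes higher in the PI2 section and tested in nuclei, 301 of 909 (33.1%) were above in both PI2 glands and 21 (2.31%) below. Among the genes lower in the section, 450 of 1270 (35.4%) were below and 70 (5.51%) above. Over all measured genes these shares were 21.5% above and 13.2% below, of 8667 tested.

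By list, the shares of genes whose glands did not overlap varied. The list members tested include genes not measured in the section, so 2 backgrounds apply, 11.3% above and 19.6% below over all tested genes and 21.5% above and 13.2% below over genes measured in the section. FABP3 was at 213 and 332 CPM in the G90 nuclei and 7.51 and 9.30 CPM in the PI2 nuclei, which did not overlap (edgeR adjusted p 0.418). LPL was at 158 and 345 CPM against 38.3 and 12.4 CPM, and TOP2A at 80.3 and 177 CPM against 5.69 and 7.65 CPM. Of 19 cell cycle genes tested in nuclei 14 were below in both PI2 glands and 0 above. CTSD was at 37.3 and 17.0 CPM at G90 and 73.2 and 102 CPM at PI2, and 9 of 18 lysosomal genes were above in both PI2 glands and 1 below. Of the milk genes, 2 of 6 milk protein, 3 of 7 fat globule and 3 of 7 lactose synthesis genes were below and 0 above, and of 20 hormone and growth factor genes 5 were below and 2 above. Above in both PI2 glands were 7 of 19 involution signalling genes (1 below), 5 of 12 luminal markers (0 below), 4 of 16 proteases and inhibitors (1 below), 3 of 12 macrophage markers (1 below) and 3 of 9 defence genes (1 below). Of 7 complement genes 1 was above and 1 below, and 0 of 10 T and NK cell markers, 0 of 6 MHC class II genes and 0 of 18 interstitial matrix genes were on either side. Of 17 interferon-induced genes 0 were above and 3 below. Further counts were 4 of 14 adipocyte markers above and 1 below, 3 of 9 immediate early genes above and 1 below, and 3 of 11 endoplasmic reticulum genes above and 2 below. Above and below were 2 and 4 of 16 fatty acid and triglyceride genes, 3 and 2 of 18 chemokine and cytokine genes and 3 and 2 of 10 B and plasma cell markers. For the 24 genes the study names the counts were 2 and 6, for 58 ribosomal protein genes 0 and 7, for 9 basement membrane genes 0 and 1 and for 6 MHC class I genes 0 and 1. The macrophage gene GPNMB overlapped, at 19.2 and 17.8 CPM against 60.8 and 14.1 CPM.

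The 2 PI2 glands differed from each other for several genes of the section contrast. XDH was at 280 and 4158 CPM in G90 nuclei and 20.3 and 1392 CPM in PI2 nuclei, and CSN2 at 93.7 and 2443 CPM against 2.22 and 478 CPM, so that both overlapped between stages. C3 was at 155 and 2278 CPM in the PI2 nuclei and LBP at 15.7 and 762 CPM, in each case above the G90 nuclei (69.7 and 56.6 CPM, and 8.60 and 14.8 CPM). HPS5 was at 38.2 CPM in one PI2 gland and 12293 CPM in the other, against 136 and 571 CPM at G90. The direction of the section was thus not shown for HPS5 in nuclei. MMP2, at 24.4 and 4.25 CPM in G90 nuclei, was at 166 and 5.13 CPM in PI2 nuclei. For some genes both PI2 glands lay on the other side from the section. ITIH4, an acute phase protein that shares 1991 bases with a neighbour on the same strand, was at 90.7 and 350 CPM in the sections but at 22 and 40.1 CPM in G90 nuclei and 12.5 and 6.52 CPM in PI2 nuclei. PLIN4, lower in the PI2 section, was at 1.66 and 0.715 CPM in G90 nuclei and 5.85 and 2.03 CPM in PI2 nuclei.

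**Figure D5:**
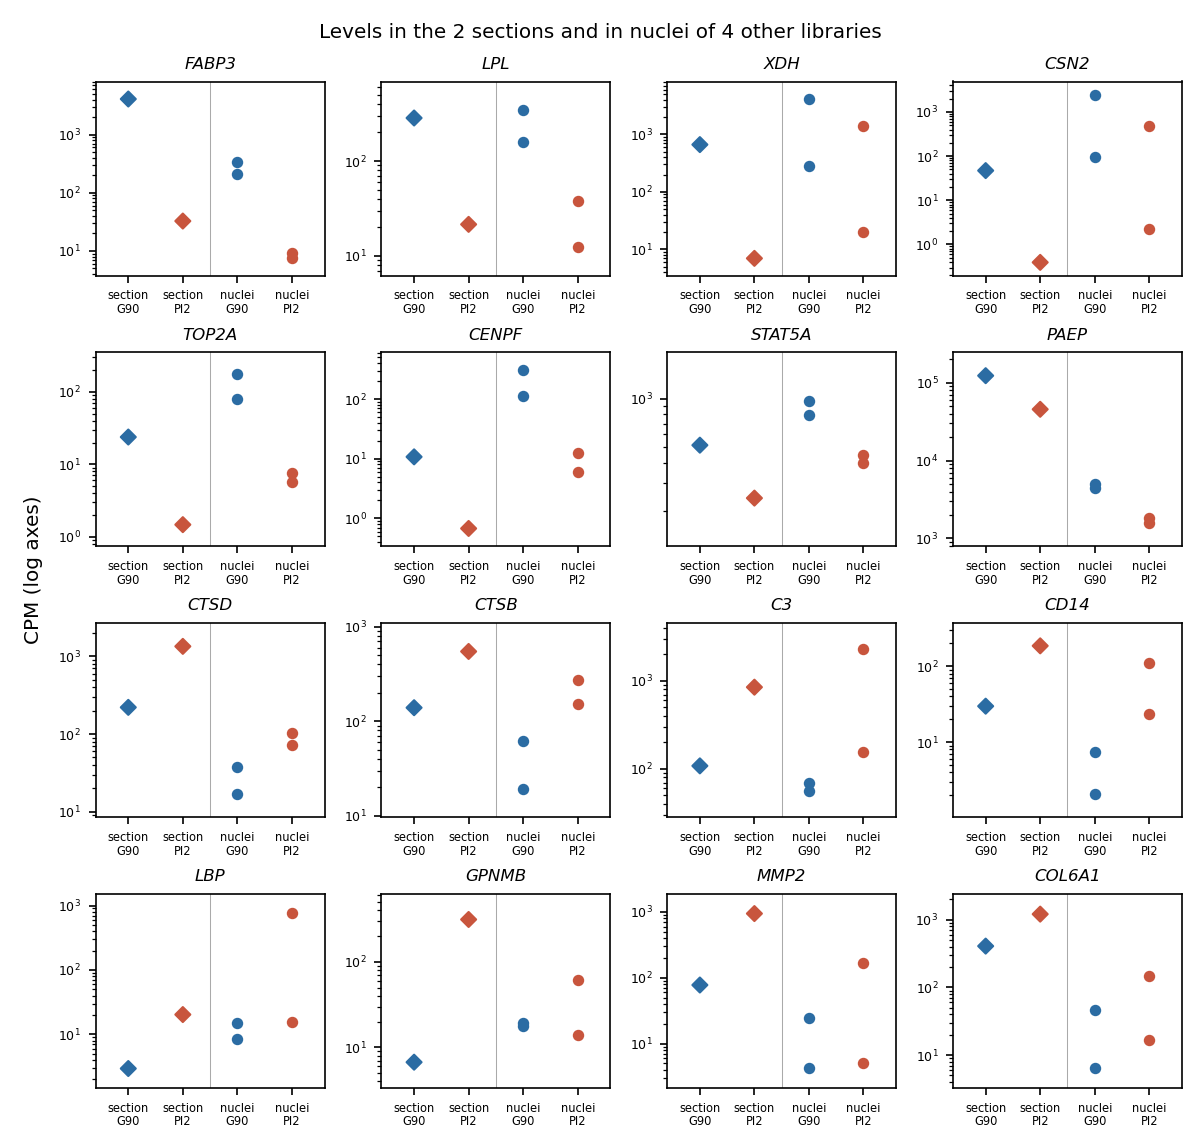
Level in CPM (y axes, log) of 16 genes in the G90 and PI2 sections (diamonds, 1 each) and in nuclei of the G90 and PI2 glands (circles, 2 each). For FABP3 the PI2 nuclei (7.51 and 9.30 CPM) lie below the G90 nuclei (213 and 332 CPM), and for XDH (20.3 and 1392 against 280 and 4158 CPM) the stages overlap.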

How the data were processed

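Visium sections of 1 gland at G90 and 1 at PI2 were used, with nuclei libraries of 10 glands. The authors deposited whole UMI counts per gene and spot, made with Space Ranger on Sscrofa11.1 (version 1.2.0 in the processing notes and 1.3.1 in the header of the deposited counts), and UMI counts per gene and nucleus for the glands. The sources used here name no annotation release. Of 21280 gene identifiers, 14811 had a symbol in the section files, 213 took one from the nuclei files, 529 from the reference, and 5727 had none. Histology and positions were not analysed here. The strand setting of the counting was not found, so counts of genes that overlap a neighbour on the other strand are uncertain. Among those named these were also POSTN, CFD, HSP90B1, CENPF, ELF5, LAMB1, UGP2, TIMP1, TIMP3, CXCL10, ADAMTS1 and SLA-DMA. EGFR, HEXA, MYLK, MYH11, PLAU, GRHL2, PLIN4, MCM7, RAB18, HBM and SLC4A1 have such a neighbour too. RNA integrity numbers over 7 were required by the study.

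Spots with at least 1000 UMIs were summed per section. CPM have exact Poisson intervals and ratios exact conditional binomial intervals, and a section with under 3 UMIs of a gene was set to 3. Shares come from spots thinned without replacement to 1000 UMIs (seed 1), with Clopper-Pearson intervals. Epithelium-rich and -poor spots were the upper and lower 25% by summed thinned UMIs of EPCAM, KRT7, KRT8, KRT18, CLDN3 and CLDN4 (KRT19 was not matched). Nuclei in which 300 or more genes were found and mitochondrial UMIs made up 25% or less were summed per gland and fitted with edgeR 4.0.16 (quasi-likelihood, TMM, filterByExpr, Benjamini-Hochberg), over the 10 libraries of 5 stages, with DESeq2 1.42.0 as an alternative. Total UMIs of the nuclei used ranged from 18700704 to 53161349 per gland, and 2 glands per stage limit the precision. Scripts were tested on simulated data.

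Named genes were those shown in sections by the study, the 15 with the largest fold in each direction, and the most abundant and up to 4 most changed members of each list. The 15 were taken among genes with a symbol and at least 100 CPM in the higher section, with mitochondrial and ribosomal protein genes left out. Other list members are named for comparison within a list, and some genes that the rule names are not reported here. Lists, members and tests were chosen with earlier results of these data known. Genes of the spot contrasts outside this rule were chosen after their values were seen. Alternatives were other limits on CPM, spots and thinning, other scalings, other fits of nuclei, each gland of G90 and PI2 left out, and, added after the data were seen, totals without PAEP.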

Additional observations from a re-analysis of the deposited data

How the results depend on the processing

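Counts of genes higher and lower over spots became 2556 and 2359 with no CPM minimum, and 419 and 438 at 50 CPM. With totals without PAEP, added after the data were seen, they became 806 and 1673. With spots thinned to 1000 UMIs, which gives each spot the same weight, they became 993 and 1289. The log2 difference over thinned spots lay outside the counting interval of the main setting for 107 named genes and inside it for 44. With median-of-ratios scaling, which gave 1077 and 1114 over all measured genes, proteases and inhibitors had 6 higher and 1 lower. Interferon-induced genes had 3 higher and 1 lower there, and the genes the study names 2 higher and 6 lower. Genes with a share 10 points higher and lower numbered 88 and 56 when thinned to 500 UMIs, 334 and 354 at 2000 UMIs, 726 and 1961 without thinning, and 70 and 36 when at least 2 UMIs were required. Without thinning the share differences of CLU (−0.104 points), ERBB3 (−0.842) and TAGLN (−0.816) turned negative. In nuclei the counts of 0 became 882 and 547 with unadjusted p, 129 and 173 with DESeq2 and 13 and 27 with no filter on low counts. Leaving out each of the 4 glands of G90 and PI2 in turn left 1 gland in that stage, with the spread taken from the other libraries. With 0 genes called in the main fit, the counts of these fits cannot show stability and are not given. The replicate number as a block gave 0 higher and 0 lower. Deviations of same-numbered G90 and PI2 glands had a correlation of 0.00467 (other stage pairs −0.522 to 0.388). With 2 glands per stage this cannot decide whether the numbers pair the samples. The sows were euthanized at their stage, so glands of different stages came from different sows.

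With 1 section per stage no spread between animals is known, and every interval covers counting error only. Sums over spots mix cell types. Of the list genes many have no matched symbol, among them MUC1, CSN1S2, WAP and KRT19, and were not analysed here.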

Other observations

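Genes outside the lists also marked the epithelium-rich spots at PI2. SCGN, a calcium sensor of secretory cells, was at 1515 CPM in epithelium-rich and 228 CPM in epithelium-poor spots at PI2 and at 289 and 94.5 CPM at G90. PGLYRP1, which binds bacterial peptidoglycan, was at 2543 and 596 CPM at PI2. On the other side was ACTG2, a smooth muscle actin, at 45.5 and 261 CPM. These genes were chosen after their values were seen.

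Across spots thinned to 1000 UMIs, PAEP varied together with some abundant transcripts and against others. The Spearman correlation of PAEP with RPS15 was 0.679 over 4634 spots at G90 and 0.638 over 2059 at PI2, and with CD74 0.532 and 0.455. With the milk genes CSN3, FABP3 and XDH it was −0.193, −0.217 and −0.159 at G90, and with MFGE8 0.164. At PI2 these values were 0.00618, 0.0199, −0.0319 and 0.0194. With COL3A1 it was −0.144 at G90 and −0.0480 at PI2. The spots of a section share a library, and thinned counts share a fixed total, so these are descriptions of pairs chosen after their values were seen.

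Some of the largest differences were in genes without a symbol. ENSSSCG00000007398 was at 10112 CPM at G90 and 155 CPM at PI2, 65.0-fold lower, and was in 99.0% and 11.4% of thinned spots. ENSSSCG00000004572 was at 126 and 17.7 CPM. ENSSSCG00000024911 was at 5.47 and 136 CPM and ENSSSCG00000007978 at 8.49 and 112 CPM. ZNF599, a zinc finger gene, had the largest fold on the higher side among genes with a symbol and at least 100 CPM at PI2, at 3.74 and 193 CPM, 51.5-fold (43.9 to 60.7), but nuclei overlapped between stages at 14.5 and 14.4 CPM against 25.5 and 8.50 CPM.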
